A study of Mus musculus with 6 samples.

Results

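Collagen chain genes were described in whole hearts of C57/BL6 mouse embryos at embryonic day 11.5. A member was any row of the deposited table whose symbol is Col, digits, a and digits, which gave 44 genes of 38918 listed. Control embryos were Tie2 flox/wild-type littermates, in which 1 allele of Tek was floxed and the other wild-type, and their label names no Cre. Tek encodes Tie2, a receptor for angiopoietins on endothelial cells. Conditional knockout embryos were Nfatc1Cre:Tie2 flox/flox, with both alleles floxed. Their Cre recombinase was under the control of Nfatc1, which is active in the endocardium, so that Cre was present in 1 group only and its effect and that of the loss of Tek cannot be told apart. All embryos carried at least 1 floxed allele. RNA of 18 hearts per genotype was pooled and portioned into 3 libraries per group, per the series text, so the spread between libraries may be technical. Liver and Y-linked transcripts nonetheless differed widely between libraries of the same group, as given below, so what this spread holds is unknown. The p-values measure only that spread. The comparison asks which collagen transcripts differ after removal of Tie2 from cells with an endocardial history.

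Collagens are secreted or membrane proteins built from 3 chains wound into a triple helix. Fibrillar collagens form the fibrils of the interstitial matrix, collagen IV forms the sheet of the basement membrane, and the transmembrane collagens stay anchored in the plasma membrane and can be shed. In the embryonic heart collagen is laid down by cushion mesenchyme, epicardium and endocardium, and the basement membrane lies beneath the endocardium and around the myocardium.

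The libraries were of heart, with the cardiomyocyte genes Tnnt2, Myh6, Myh7, Actc1 and Nkx2-5 summing to between 6521 and 10180 FPKM, a fragment count normalised for transcript length and library size. The lowest of these sums was in conditional knockout replicate 1. FPKM summed to between 481334 and 582261 per library, and read depth was unknown. Tek measured 16.6 to 25.7 FPKM across controls against 3.13 to 3.38 FPKM across conditional knockouts. A sum over the 4 liver genes Alb, Afp, Apoa1 and Ttr ranged from 0.850 FPKM in conditional knockout replicate 3 to 209 FPKM in conditional knockout replicate 2. The embryonic globin genes Hba-x and Hbb-y were listed at 0 in all 3 controls but not in the conditional knockouts.

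Of the 44 genes, 28 had a mean of at least 1 FPKM over the 6 libraries and entered the test, and 16 did not. Differences are conditional knockout minus control on the log2(FPKM + 1) scale, tested with limma over all 12988 genes that passed the same minimum, with p-values adjusted by Benjamini-Hochberg and called under 0.05. A single collagen gene, Col13a1, fell and none rose. Over all genes tested, 0.123% were called lower and 0.0539% higher. At an unadjusted p under 0.05 in limma, 5 collagen genes were lower and 0 higher, beside 4.37% and 2.31% of all genes. These same 5 genes, Col13a1, Col23a1, Col18a1, Col4a1 and Col4a2, were also the tested members in which all 3 conditional knockout libraries lay below all 3 controls, which held for 8.17% of all genes. No tested member had all conditional knockout libraries above all controls, against 5.23% of all genes. The median log2 fold change of the 28 was 0.04, with 13 below 0 and 15 above, and that of all genes tested was -0.01.

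**Figure D1:**
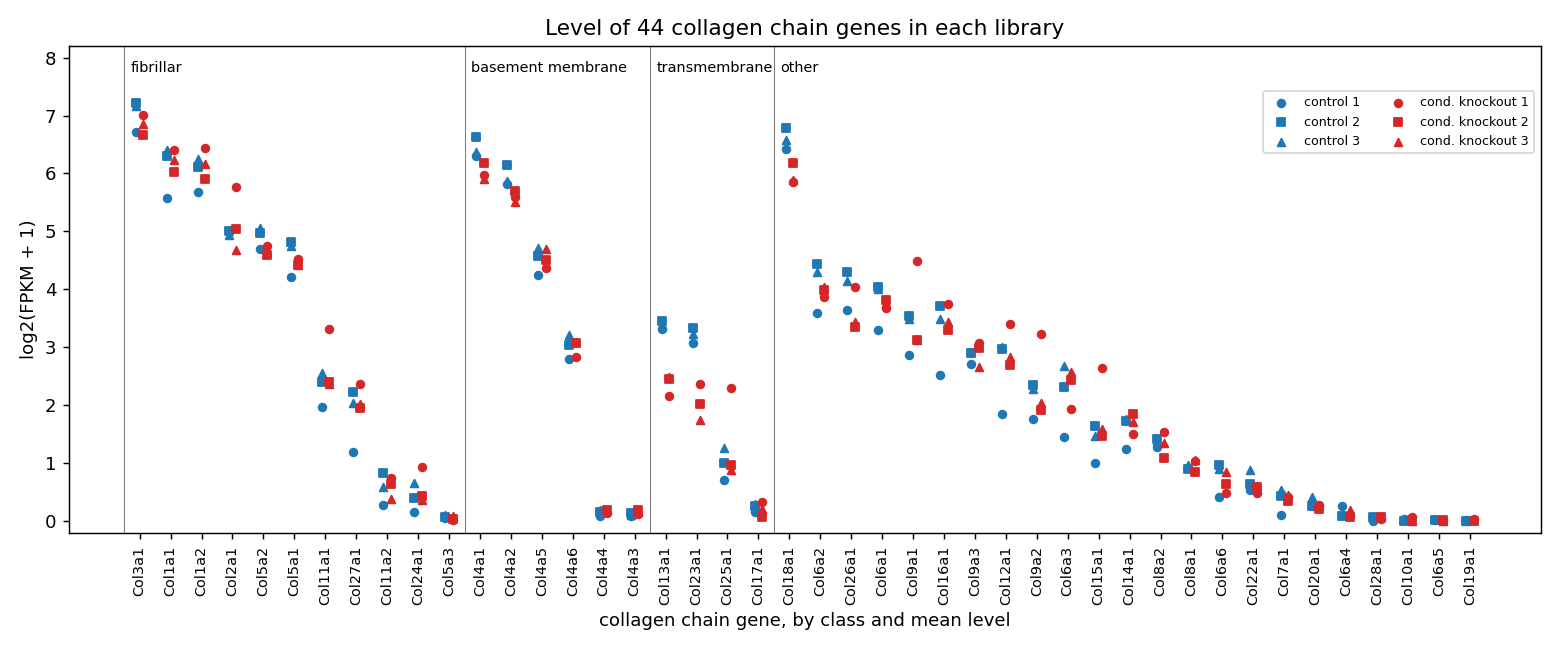
Level of the 44 collagen chain genes as log2(FPKM + 1) on the vertical axis, grouped by class and ordered by mean level, with 1 symbol per library (blue, 3 controls; red, 3 conditional knockouts). Col3a1 was the most abundant at a mean of 122.9 FPKM over the libraries, and the red and blue symbols part most clearly in Col13a1 and Col23a1.

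The transmembrane class held 4 genes, and the 2 most abundant of them had the most negative differences of all 28 tested collagens. Col13a1 encodes a single-pass collagen of cell adhesion sites, known for its part at the neuromuscular junction. The gene lies on the minus strand of chromosome 10 from 61838236 to 61979108 (GRCm38). Its level was 8.94, 9.96 and 9.47 FPKM in control replicates 1, 2 and 3 and 3.47, 4.50 and 4.64 FPKM in the conditional knockouts. Every conditional knockout library was below every control, and the spread within a group was small beside the gap. The group means were 9.46 ± 0.512 and 4.21 ± 0.638 FPKM (SD, n = 3 each), a 2.25-fold lower mean. Its log2 fold change of -1.01 ± 0.12 (SE) passed with a limma adjusted p of 0.0278. With the replicate number as a block the adjusted p was 0.0517 at the same log2 fold change. The call also ended without any 1 library. Over the whole table, the number of genes called lower went from 16 to between 4 and 9 in these fits. Leaving out control replicate 1, 2 or 3 gave a limma adjusted p of 0.0873, 0.202 or 0.118. Leaving out conditional knockout replicate 1, 2 or 3 gave 0.0607, 0.1 or 0.109, at log2 fold changes of -1.08 to -0.91 over the 6 fits.

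Col23a1 encodes the transmembrane collagen known to bind an integrin of platelets and keratinocytes, and lies on the plus strand of chromosome 11 from 51289920 to 51583918. It was measured at 7.48, 9.09 and 8.35 FPKM in controls 1 to 3, and at 4.14, 3.09 and 2.38 FPKM across conditional knockouts. Again no conditional knockout library reached the lowest control. The means of 8.30 ± 0.805 and 3.20 ± 0.890 FPKM (SD, n = 3 each) differed 2.59-fold. The log2 fold change of -1.16 ± 0.16 (SE) was the most negative of the 28, but Col23a1 did not pass over all genes (limma adjusted p = 0.0762). It passed with quantile normalization, at an adjusted p of 0.0478, and in none of its 13 other alternatives. The Y-linked genes also differed between the group means. The sum of Ddx3y, Uty, Kdm5d and Eif2s3y was 29.6, 31.2 and 65.0 FPKM across controls against 55.0, 79.0 and 82.1 FPKM across conditional knockouts. The groups overlapped in this sum, with control replicate 3 above conditional knockout replicate 1. Apart from the covariate fit that follows, a part of embryo sex in the collagen differences was not tested. With Y-linked expression as a covariate in limma, the log2 fold change of Col13a1 came to -1.10 ± 0.18 (SE) at an adjusted p of 0.246, and that of Col23a1 to -1.05 ± 0.24 (SE) at an adjusted p of 0.809.

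The sequences before both start sites are shown because these genes had the largest differences of the family. Each window holds the 250 bases upstream of the RefSeq start on GRCm38.p6, 5′ to 3′ on the strand of the gene, and no exon annotated in GENCODE M21 lies in it. Capitals mark matches, on either strand, to TATAAA (the TATA box), CCAAT (the CCAAT box), GGGCGG (the GC box), TAAACA (the core bound by forkhead factors), AACAAT (the core bound by SOX factors) and CCGGAAGT (a site bound by ETS factors).
Col13a1: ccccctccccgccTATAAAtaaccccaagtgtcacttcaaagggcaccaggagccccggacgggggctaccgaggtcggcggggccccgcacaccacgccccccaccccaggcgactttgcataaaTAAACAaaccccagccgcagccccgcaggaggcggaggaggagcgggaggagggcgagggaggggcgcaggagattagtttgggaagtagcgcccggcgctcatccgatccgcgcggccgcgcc
Col23a1: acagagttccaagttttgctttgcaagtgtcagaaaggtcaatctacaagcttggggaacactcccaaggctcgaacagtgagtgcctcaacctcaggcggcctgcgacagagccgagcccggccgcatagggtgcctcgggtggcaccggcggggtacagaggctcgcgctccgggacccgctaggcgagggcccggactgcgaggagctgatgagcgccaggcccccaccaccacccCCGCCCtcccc
The window of Col13a1 is chr10:61979109-61979358 on the minus strand, and that of Col23a1 is chr11:51289670-51289919 on the plus strand. Col13a1 holds TATAAA from 237 to 232 bases before the start and TAAACA from 124 to 119 bases before it, 2 motifs present in 12.4% and 12.03% of 32851 promoter windows of the same length. Col23a1 holds only GGGCGG, on the other strand, from 11 to 6 bases before its start, a match found in 32.7% of all windows. None of the 6 motifs was shared by both. These are matches of letters alone, at any distance from the start, and their use as promoter elements was not tested. The G and C content was 68.8% and 66.0%, above the median of 52.4% over all windows and of 59.0% over the windows of the collagen family. RefSeq windows were matched for 35 of the 44 collagen genes, 38 windows in all, of which 57.9% hold the GC box, 34.2% the CCAAT box, 15.8% the forkhead core, 13.2% the TATA box, 2.6% the SOX core and 0 the ETS site. Over all windows the CCAAT box was found in 33.8%, the SOX core in 9.42% and the ETS site in 2.88%.

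The other two transmembrane genes either overlapped between the groups or were too low to test. Col25a1, a collagen of neurons and developing muscle, stood at 0.638, 1.002 and 1.39 FPKM across controls against 3.95, 0.959 and 0.840 FPKM across conditional knockouts. Conditional knockout replicate 1 was high, and the other two lay inside the control range. Its log2 fold change stood at 0.39 ± 0.38 (SE) with a limma adjusted p of 0.848, and within replicates 2 and 3 alone it was -0.21. Col17a1, the hemidesmosome collagen of epidermis, was at 0.0487 to 0.259 FPKM in all 6 libraries and was not tested. The epidermal keratin genes Krt5, Krt14 and Krt15 were likewise each under 1 FPKM in every library. Summed over its 4 genes, the transmembrane class measured 17.2, 20.3 and 19.5 FPKM across controls against 11.8, 8.60 and 8.02 FPKM across conditional knockouts. It made up 2.45% to 2.87% of all collagen FPKM across controls against 1.29% to 1.61% in conditional knockouts, so it was the smallest class in every library.

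**Figure D2:**
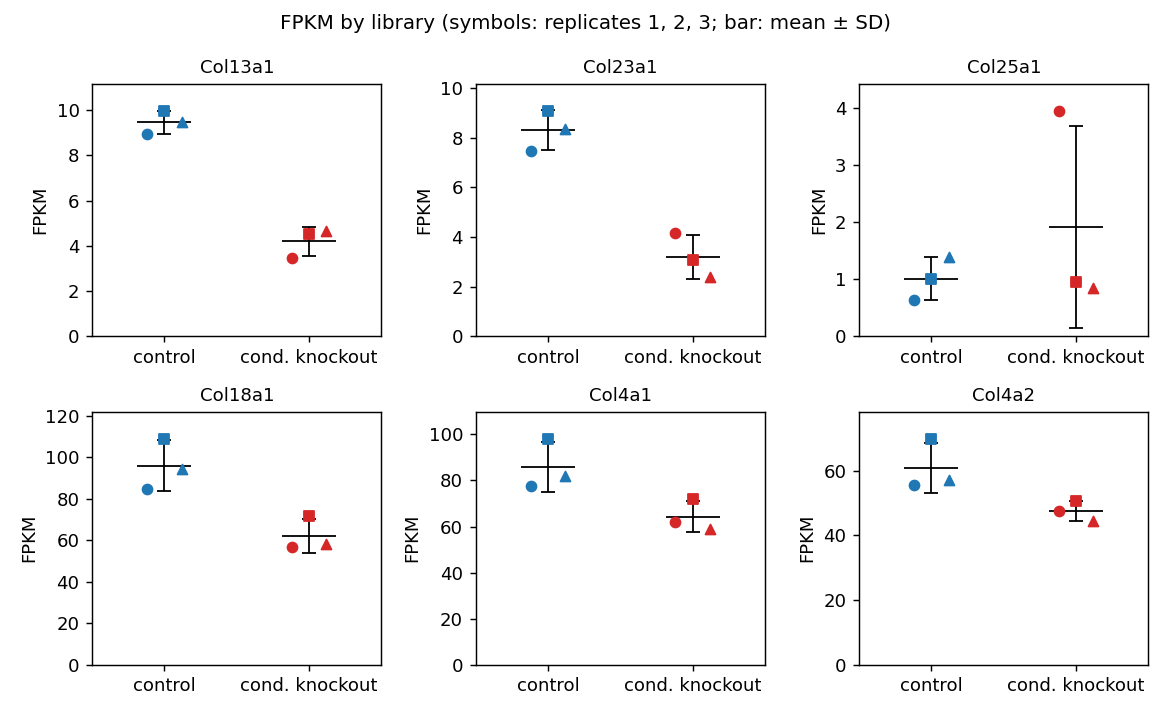
FPKM (vertical axes, from 0) of 6 collagen genes in the control (blue) and conditional knockout (red) libraries, with a circle, square and triangle for replicates 1, 2 and 3 and the mean ± SD in black. In Col13a1, Col23a1, Col18a1, Col4a1 and Col4a2 every red symbol lies below every blue one, while Col25a1 has a single high library at 3.95 FPKM.

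Basement membrane collagens split by gene pair. Col4a1 and Col4a2 encode the chains of the collagen IV network found in all basement membranes, and were lower in every conditional knockout library without passing the test. Col4a1 was at 77.6, 98.0 and 81.8 FPKM across controls against 62.2, 72.0 and 58.8 FPKM across conditional knockouts. Col4a2 was at 55.6, 69.9 and 57.2 FPKM and at 47.5, 50.8 and 44.3 FPKM. The groups do not overlap in either gene, although the highest conditional knockout library came close to the lowest control. Their log2 fold changes were -0.41 ± 0.13 and -0.34 ± 0.12 (SE), at limma adjusted p values of 0.652 and 0.713. Both genes start from opposite strands of chromosome 8, at 11312826 for Col4a1 and 11312805 for Col4a2, so that their first exons share 22 bases. Whether the authors' counting used strand is not stated in these sources, so reads in that overlap cannot be assigned.

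Col4a5 and Col4a6, the head-to-head pair of the X chromosome, encode chains of specialised basement membranes. Col4a5 measured 17.9, 22.8 and 25.2 FPKM across controls against 19.7, 21.7 and 25.1 FPKM across conditional knockouts. For Col4a6 the values were 5.98, 7.22 and 8.28 FPKM and 6.12, 7.48 and 7.52 FPKM. The groups overlapped throughout in both, with log2 fold changes of 0.02 ± 0.15 and -0.02 ± 0.14 (SE, limma adjusted p = 0.99 for each). Col4a3 and Col4a4, chains of kidney and lung basement membranes, stayed under 0.15 FPKM in all libraries and were not tested. The 6 genes of the class summed to 176.0 ± 20.7 FPKM across controls against 141 ± 9.41 FPKM across conditional knockouts (SD, n = 3 each).

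Col18a1 encodes a collagen of vascular and epithelial basement membranes whose end fragment is endostatin. With Col15a1 it forms the multiplexin group of the remaining collagens. Control libraries gave 84.6, 108.8 and 94.3 FPKM, and conditional knockout libraries 56.8, 71.5 and 58.0 FPKM. All 3 conditional knockout values lay below the lowest control, and the mean was 1.54-fold lower (95.9 ± 12.2 against 62.1 ± 8.18 FPKM, SD, n = 3 each). Its log2 fold change of -0.62 ± 0.14 (SE) was the third most negative of the family and did not pass (limma adjusted p = 0.333). The gene overlaps Slc19a1 on the opposite strand. Col15a1, expressed around vessels and muscle, lay at 1.02, 2.13 and 1.78 FPKM across controls against 5.24, 1.77 and 2.01 FPKM across conditional knockouts. Its positive difference of 0.52 ± 0.33 (SE, limma adjusted p = 0.808) came with 1 high library, and was -0.03 within replicates 2 and 3.

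Most of the endothelial markers listed were lower along with these collagens. Of 6 endothelial and endocardial markers, Npr3 fell and the other 5 did not pass the limma test, and 5 of 6 had conditional knockout libraries all below the controls. The shares over all genes tested were 0.123% called lower and 8.17% with all conditional knockout libraries below all controls. The summed level of the 6 markers was 193.5 to 217 FPKM across controls against 135 to 168 FPKM across conditional knockouts. Cdh5, the cadherin of endothelial junctions, had a log2 fold change of -0.71, Kdr one of -0.40 and Pecam1 one of -0.38. In RNA of whole hearts, fewer cells of a type and less RNA per cell cannot be told apart. Set against the sum of the 6 markers, a ratio chosen after the values were seen, Col13a1 stood at 4.62, 4.59 and 4.81 FPKM per 100 FPKM of markers in controls and at 2.57, 2.68 and 3.13 in conditional knockouts. Col23a1 stood at 3.86, 4.19 and 4.24 per 100 in controls and 3.06, 1.83 and 1.60 in conditional knockouts. Both genes remained separated on this scale, which is no further test, since they had the most negative differences of the tested collagens. Col18a1 was separated by less, at 43.7 to 50.2 against 39.1 to 42.5 per 100. Col4a1, at 40.1 to 45.2 against 39.7 to 46.0 per 100, and Col4a2, at 28.7 to 32.2 against 29.9 to 35.2 per 100, overlapped between the groups. Which of these genes stay separated was the same when Npr3 and Nfatc1 were left out of the sum. Both sums include Emcn, which was not lower, and ratios to single markers were not taken. Npr3 alone had a log2 fold change close to those of Col13a1 and Col23a1, so the sums do not set these collagens apart from every marker.

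**Figure D3:**
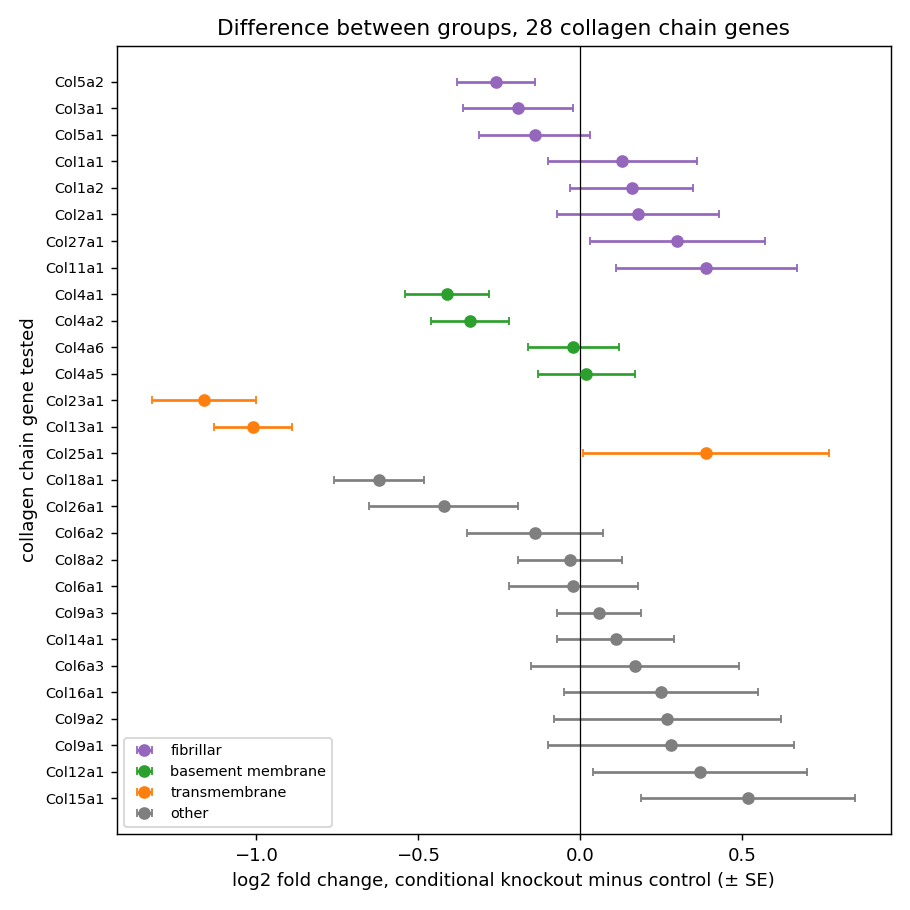
Log2 fold change (conditional knockout minus control, points) with its moderated SE (bars) for the 28 tested collagen genes, coloured by class. Col23a1 at -1.16 and Col13a1 at -1.01 lie farthest from 0, followed by Col18a1 at -0.62, and no gene on the positive side exceeds 0.52.

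Fibrillar collagens carried the largest share of collagen FPKM, and their summed level differed between the groups by less than its spread. Of 11 genes, 8 were tested and none passed, with 3 log2 fold changes below 0, 5 above and a median of 0.14. In replicates 2 and 3 alone all 8 lay below 0 (median -0.18). Without control replicate 1 it was 6 (median -0.07), and without conditional knockout replicate 1 it was 4 (median -0.05). Their sum was 356 ± 67.4 FPKM across controls against 353 ± 54.9 FPKM across conditional knockouts (SD, n = 3 each), and made up 46.6% to 56.4% of all collagen FPKM in a library. Col3a1, the collagen of elastic and vascular tissues, was the most abundant of all 44 genes. It ran at 103.5, 147.7 and 142.7 FPKM across controls against 127.9, 100.4 and 115.3 FPKM across conditional knockouts, with overlapping groups and a log2 fold change of -0.19 ± 0.17 (SE).

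Col1a1 and Col1a2 encode the chains of collagen I, the main fibril of connective tissue. Col1a1 stood at 46.6, 78.1 and 84.0 FPKM across controls against 83.5, 64.1 and 74.5 FPKM across conditional knockouts. In Col1a2 the values were 50.3, 68.0 and 74.7 FPKM and 86.3, 59.1 and 70.4 FPKM. In both genes control replicate 1 was the lowest library, and the sign of the difference turned from positive (0.13 and 0.16) to negative (-0.23 and -0.14) within replicates 2 and 3. Col5a1 and Col5a2, the chains of collagen V that start fibrils, had log2 fold changes of -0.14 ± 0.17 and -0.26 ± 0.12 (SE). Col5a2 measured 25.04 to 32.5 FPKM across controls against 23.0 to 25.8 FPKM across conditional knockouts, and its limma adjusted p was 0.772. Col5a3, Col11a2 and Col24a1 averaged under 1 FPKM and were not tested.

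Col2a1, Col9a1, Col9a2 and Col11a1, 4 collagens of cartilage-type fibrils grouped after their values were seen, were highest in 1 conditional knockout library. Col2a1, the main fibril of cartilage, also made by cushion mesenchyme, gave 31.0, 31.1 and 29.7 FPKM across controls against 53.1, 31.9 and 24.7 FPKM across conditional knockouts. Col9a1, a chain of the collagen that decorates these fibrils, gave 6.30, 10.7 and 10.2 FPKM and 21.5, 7.70 and 7.72 FPKM. Its partner Col9a2 was at 2.39, 4.08 and 3.89 FPKM and at 8.40, 2.78 and 3.13 FPKM. Col11a1, which is built into the same fibrils, was at 2.94, 4.29 and 4.89 FPKM and at 8.99, 4.31 and 4.15 FPKM. Conditional knockout replicate 1 was the top library in all 4, and the other conditional knockout libraries lay at or below the highest control, apart from 31.9 against 31.1 FPKM in Col2a1. Their partners showed less of this. Col9a3, the third chain of collagen IX, was at 7.43 FPKM in that library and 6.99 FPKM in conditional knockout replicate 2, with controls at 5.56 to 6.58 FPKM. Col11a2 was highest in control replicate 2, at 0.793 FPKM against 0.673 FPKM in conditional knockout replicate 1. Without conditional knockout replicate 1, the log2 fold changes of Col2a1, Col9a1 and Col9a2 went from 0.18, 0.28 and 0.27 to -0.12, -0.18 and -0.15. That of Col11a1, at 0.39 with all libraries, did not turn negative in this fit. The cartilage genes Acan, Matn1, Matn3, Lect1 and Ibsp were each under 1 FPKM in every library, with a sum of 1.39 FPKM in conditional knockout replicate 1 and 0.644 to 1.02 FPKM elsewhere. Sox9, a transcription factor gene of cushion mesenchyme and cartilage, was at 17.0 FPKM in conditional knockout replicate 1 and at 10.7 to 14.0 FPKM in the others. Col10a1, the collagen of hypertrophic cartilage, did not exceed 0.0544 FPKM anywhere.

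**Figure D4:**
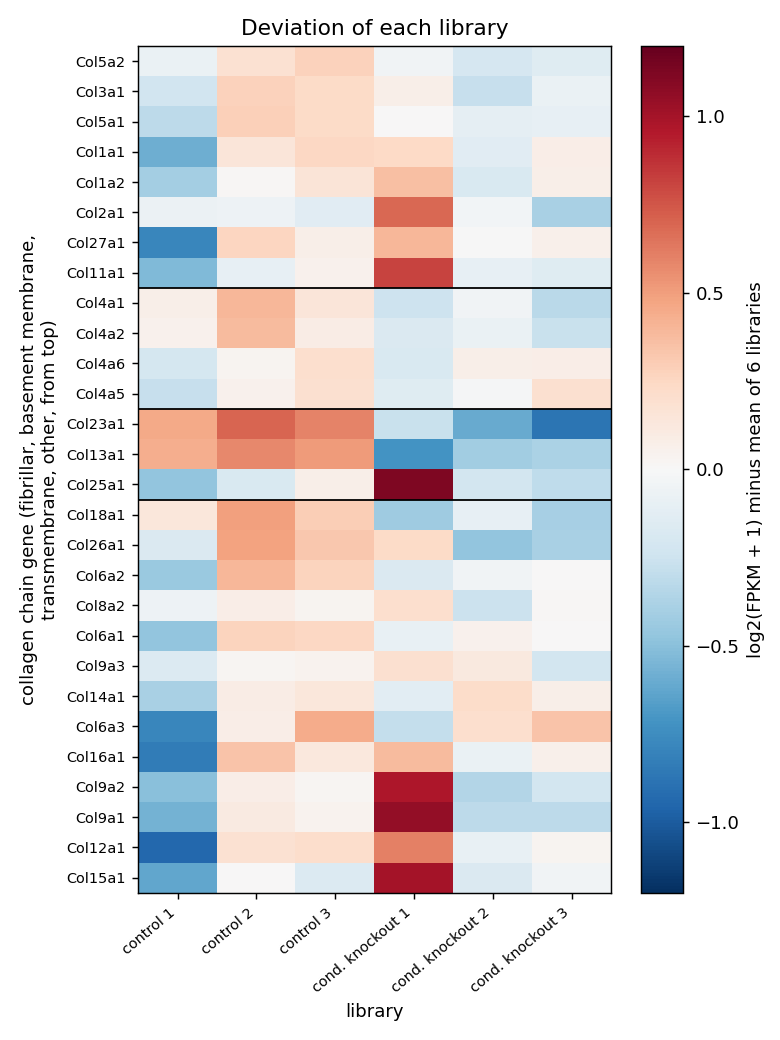
Deviation of each library (columns) from the mean of the 6 libraries, as log2(FPKM + 1), for the 28 tested collagen genes (rows, by class), with red above and blue below the mean. Control replicate 1 is blue in most rows, and conditional knockout replicate 1 is strongly red in Col25a1, Col9a1, Col9a2, Col15a1, Col11a1 and Col2a1.

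Both replicate 1 libraries stood apart in the collagen family, and in opposite directions. Control replicate 1 was the lowest of the 6 libraries in 17 of the 28 tested collagens, against 26.4% of all genes tested, and the highest in 0. It lay below the mean of control replicates 2 and 3 in 27 of 28, Col2a1 being the exception, by a median of 0.50 on the log2 scale. Among all genes tested 50.8% lay below, with a median of -0.01. The largest gaps were in Col12a1 (-1.14), a collagen that links fibrils in tissues under strain, in Col16a1 (-1.07), also a fibril-associated collagen, and in Col6a3 (-1.04). Conditional knockout replicate 1 was the highest library in 12 of 28 (17.2% of all genes) and lay above the mean of the other conditional knockouts in 19 of 28, against 49.4% of all genes. Markers of cushion mesenchyme did not share a single pattern over the replicate 1 libraries. The genes Sox9, Twist1, Postn, Prrx1 and Msx1 summed to 111.5 FPKM in control replicate 1, 136 FPKM in conditional knockout replicate 1 and 190 to 216 FPKM in the other libraries. Postn, a matrix protein gene of cushions and fibroblasts, carried this sum, at 60.2 and 70.5 FPKM in both replicate 1 libraries and at 138 to 161 FPKM in the rest. Sox9 and Prrx1 were instead highest in conditional knockout replicate 1, at 17.0 and 10.8 FPKM, and lowest in control replicate 1, at 10.7 and 4.27 FPKM. Twist1 ranged from 29.4 to 33.9 FPKM and Msx1 from 3.51 to 5.996 FPKM over the 6 libraries. The part of cell composition, depth or RNA quality in these library differences was not tested. Over the 28 collagens, the gap of control replicate 1 had a Spearman rho of -0.20 with the longest annotated transcript, and that of conditional knockout replicate 1 one of -0.18. These are descriptions across genes that share a library.

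Among the other non-fibrillar collagens, the beaded filament chains Col6a1, Col6a2 and Col6a3 of the pericellular matrix overlapped between groups. Col6a1 was at 8.83, 15.4 and 15.2 FPKM across controls against 11.8, 13.2 and 12.7 FPKM across conditional knockouts, and Col6a2 at 11.04, 20.6 and 18.7 FPKM and 13.6, 14.95 and 15.5 FPKM. Col6a3 lay lower, at 1.74 to 5.40 FPKM across controls against 2.84 to 4.95 FPKM across conditional knockouts. The lowest value of each chain was in control replicate 1. The fibril-associated collagens, called FACIT, comprised 6 tested genes, and all 6 log2 fold changes were above 0 (median 0.26) with none past the threshold. Within replicates 2 and 3 alone 5 of the 6 lay below 0 (median -0.23), without control replicate 1 it was 4 of the 6 (median -0.01) and without conditional knockout replicate 1 it was 3 (median 0.05). Their summed level was 61.9 FPKM in conditional knockout replicate 1, 23.7 FPKM in control replicate 1 and 35.1 to 43.3 FPKM in the other 4 libraries. Col26a1, a secreted collagen with an EMI domain, was at 11.5, 18.7 and 16.6 FPKM across controls against 15.5, 9.19 and 9.80 FPKM across conditional knockouts. Its log2 fold change of -0.42 ± 0.23 (SE, limma adjusted p = 0.795) was -0.83 within replicates 2 and 3, where the adjusted p stayed above the threshold at 0.102. Col8a2, a network chain of endothelial and corneal membranes, had a log2 fold change of -0.03 ± 0.16 (SE).

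Levels of chains that assemble together were compared as ratios within a library, since the FPKM scale corrects for length. The Col4a1 to Col4a2 ratio was 1.40, 1.40 and 1.43 in controls and 1.31, 1.42 and 1.33 in conditional knockouts, although both genes were lower in the second group. For Col9a1 to Col9a2 it was 2.61 to 2.63 in controls and 2.46 to 2.77 in conditional knockouts, so the high levels of conditional knockout replicate 1 applied to both chains, with a ratio of 2.56 there. Col1a1 to Col1a2 ran from 0.927 to 1.15 and Col4a5 to Col4a6 from 2.90 to 3.34 over the 6 libraries. Col6a3 to Col6a2 varied most, from 0.158 to 0.319. Of 7 ratios, that of Col6a1 to Col6a2 was the only one without overlap, at 0.747 to 0.810 in controls and 0.817 to 0.881 in conditional knockouts. Ratios were not tested.

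**Figure D5:**
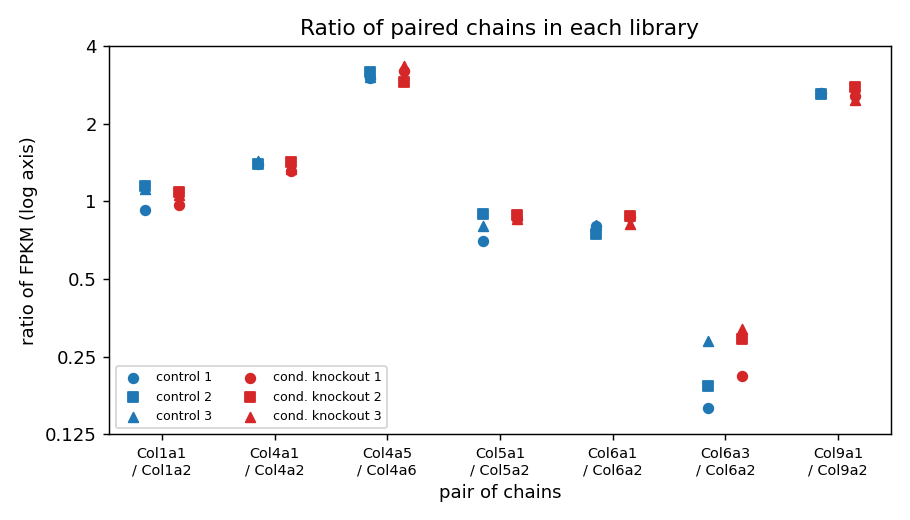
Ratio of the FPKM of 7 pairs of chains (vertical log axis) in the control (blue) and conditional knockout (red) libraries, with a circle, square and triangle for replicates 1, 2 and 3. The libraries of both groups lie close together in most pairs, with the widest spread in Col6a3 to Col6a2, from 0.158 to 0.319.

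The enzymes, chaperones and receptors of collagen had no member past the threshold in either direction. Of 55 genes in 4 lists, 44 were tested with limma, and at an unadjusted p under 0.05 there were 5 lower and 1 higher, beside 4.37% and 2.31% of all genes tested. In the list of prolyl and lysyl modification and folding (20 tested, median -0.09), Serpinh1, the collagen chaperone HSP47, was the most abundant at 418 ± 21.1 FPKM across controls against 369.7 ± 20.04 FPKM across conditional knockouts (SD, n = 3 each). P4hb, a subunit of prolyl hydroxylase, had a log2 fold change of -0.05 ± 0.16 (SE). Creb3l1, a transcription factor gene of secretory cells known to act on collagen genes, had the most negative difference of the list, at 12.8 ± 1.40 FPKM across controls against 8.95 ± 1.30 FPKM across conditional knockouts (SD, n = 3 each), without overlap (log2 fold change -0.47 ± 0.13, SE, limma adjusted p = 0.55). Plod2, the lysyl hydroxylase of collagen cross-links, was on the other side, at 27.1 to 31.2 FPKM and 34.7 to 39.95 FPKM (0.35 ± 0.10, SE, limma adjusted p = 0.585).

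Among the cleavage and cross-linking genes (10 tested, median 0.05), Tgm2, a transglutaminase gene also active in endothelium, was the most abundant. It measured 94.4, 90.4 and 87.3 FPKM across controls against 56.5, 70.7 and 69.3 FPKM across conditional knockouts, without overlap, and did not pass (log2 fold change -0.47 ± 0.12, SE, limma adjusted p = 0.415). Pcolce, the enhancer of procollagen C-terminal cleavage, came next at 47.8 ± 6.22 and 47.9 ± 5.36 FPKM (SD, n = 3 each). Pxdn, the peroxidase that cross-links collagen IV, was at 47.2 ± 7.82 and 42.7 ± 1.60 FPKM (SD, n = 3 each), a difference within its spread. Of the metalloproteases and their inhibitors (8 tested, median -0.07), the membrane-bound collagenase gene Mmp14 had the most negative log2 fold change, -0.28 ± 0.12 (SE), and that of Mmp15 was -0.24 ± 0.09 (SE). In the receptor list (6 tested, median -0.02), Itgb1, the shared integrin chain, was at 235.9 to 253.5 FPKM in all libraries, and Ddr1 had a log2 fold change of -0.09 ± 0.10 (SE). Ddr2, a receptor for fibrillar collagen, was at 1.47, 2.06 and 2.43 FPKM across controls against 8.44, 2.50 and 3.001 FPKM across conditional knockouts. Its highest value was again in conditional knockout replicate 1, and its log2 fold change of 0.78 ± 0.36 (SE) did not pass (limma adjusted p = 0.772).

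Collagen genes outside the test were at low level in every library. The highest mean among these 16 was that of Col8a1, at 0.946 FPKM, and 3 of them, Col10a1, Col19a1 and Col28a1, were listed at 0 in 1 or 2 libraries. Col6a6 and Col22a1 averaged 0.657 and 0.545 FPKM, and Col7a1, the anchoring fibril collagen of skin, 0.311 FPKM. Differences of these genes between the groups were not tested at the minimum of 1 FPKM, and the depth that would set their error is unknown.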

How the data were processed

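RNA sequencing libraries of whole mouse hearts were compared between 3 controls and 3 conditional knockouts. RNA was isolated with Trizol and libraries were made with a TruSeq kit, per the labels' protocols. The authors deposited FPKM values for 38918 genes. TopHat2 2.0.9, Cufflinks 2.2.1, Cuffdiff, HTSeq and the build mm10 are named, without roles, per the submitters' processing notes. Not given in the sources used here are the annotation, the use of strand and the handling of reads with several matches. With no counts the read depth is unknown. Values were analysed as log2(FPKM + 1) for genes averaging at least 1 FPKM, with limma 3.58.1 in R 4.3.3 (intensity trend, no block, 4 residual and 3.33 prior degrees of freedom), after a check on simulated data. A pseudocount of 1 understates changes of low genes. Members, classes and gene lists were chosen with earlier results of these data known. The genes given by name were all members past the threshold, the 4 most abundant per class, the 6 with the largest differences and the chains of each ratio. Of the accompanying lists, members past the threshold, the 2 most abundant and the most changed were taken. Other named genes were chosen after their values were seen. Positions come from GENCODE M21 (GRCm38). Libraries with the same replicate number deviated from their group means with correlations of 0.267, 0.109 and 0.439 over 12805 genes above 0 in every library, and of 0.189, 0.0306 and 0.229 over all 12988, so whether the numbers pair the libraries is uncertain and values with the block are given. Alternatives were a pseudocount of 0.1, no filter, a minimum of 5 FPKM, quantile normalization, the replicate block, leaving out each library, replicates 2 and 3 only, and a Y-linked covariate. Scaling to a common median was added after the data were seen.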

Additional observations from a re-analysis of the deposited data

How the results depend on the processing

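The number of collagen genes called lower, 1 in the test without a block, was 2 with quantile normalization and 0 with no filter on low values, with the replicate block, with the Y-linked covariate and in replicates 2 and 3 alone. It was 0 to 0 without any 1 library. Under the replicate block Col13a1 had an adjusted p of 0.0517, and no other collagen call changed with the pairing. No collagen gene was called higher, and no enzyme or receptor gene called either way, under any of the alternatives. Col13a1, Col23a1, Col18a1, Col4a1 and Col4a2 kept a negative difference in all 14. Signs turned in collagens with differences near 0, and also in those with larger positive differences, such as Col15a1 at 0.52 and Col25a1 and Col11a1 at 0.39. All 8 tested fibrillar genes and 5 of the 6 tested FACIT genes lay below 0 in replicates 2 and 3 alone. Within replicates 2 and 3 the log2 fold change was -0.03 for Col15a1, -0.23 for Col1a1, -0.14 for Col1a2, -0.21 for Col25a1, -0.11 for Col2a1, -0.04 for Col4a5, -0.39 for Col9a1 and -0.33 for Col9a2. With the Y-linked covariate it was -0.10 for Col1a1, -0.23 for Col4a5 and -0.47 for Col6a3. Without any 1 library the ranges were -0.14 to 0.28 (Col1a1), -0.0046 to 0.29 (Col1a2), -0.12 to 0.42 (Col2a1), -0.12 to 0.12 (Col4a5), -0.12 to 0.08 (Col4a6), -0.27 to 0.10 (Col6a1), -0.40 to 0.02 (Col6a2), -0.18 to 0.43 (Col6a3), -0.18 to 0.51 (Col9a1) and -0.15 to 0.51 (Col9a2). The ratio of FPKM + 1 was 2.81 in controls and 2.88 in conditional knockouts for Col4a5 to Col4a6, and 2.24 and 2.27 for Col9a1 to Col9a2. The log2 ratio of the summed other collagens went from -0.26 to 0.04 without Col18a1, their most abundant member. The causes of these changes were not tested. With 3 libraries per group from pooled RNA and no known depth, small differences of collagens near 1 FPKM cannot be resolved.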
